A study of Mus musculus with 51 samples.

Results

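The 4 chains of the interferon receptors (Ifngr1, Ifngr2, Ifnar1 and Ifnar2), the JAK kinases that sit on them (Jak1, Jak2 and Tyk2) and the ubiquitin ligase gene Stub1 were followed through 51 bulk RNA-seq libraries from mouse tumors and cultured cells. These 8 genes were picked by symbol and not by any measured value, and they stand among 40077 genes in the deposited tables. Tumors grown under the skin gave 35 of the 51 libraries, and cultures of Myc-CaP, a mouse prostate cancer line driven by Myc, gave the other 16. The study compared loss, gain or drug inhibition of Uba1, the main ubiquitin-activating enzyme (E1), with controls.

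Tumors of B16-BL6, a mouse melanoma line, comprised 3 controls with a nontargeting guide RNA and 4 labelled sgUba1, grown in C57BL/6 mice. Myc-CaP tumors, grown in male FVB mice, comprised 3 nontargeting controls and 7 labelled sgUba1, 3 with an empty vector (EV) and 4 with Uba1 overexpression (OE), and 6 given vehicle and 5 given TAK-243, an inhibitor of UBA1. Per the study's methods, TAK-243 was injected intravenously at 25 mg/kg, 2 times per week, mice were 6 to 8 weeks old, and tumors were implanted in both flanks, so that libraries of a group may share a mouse. Lines with a guide were expanded from sorted single cells, so that an sgUba1 group may stand for a single clone, and the labels do not give the guide or clone. Uba1 overexpression came from a lentiviral vector with a CMV promoter. In cells, 1 experiment compared sgUba1 with a nontargeting control, each with PBS or IFN-γ, and the other compared 50 nM TAK-243 for 18 hours with untreated cells, each without or with IFN-γ (1 ng/mL for 18 hours), with 2 libraries in each of these 8 groups. The labels do not say that replicates are separate cultures or animals, so p-values measure the spread between these libraries, which may be technical.

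IFN-γ binds a receptor built of IFNGR1, which holds JAK1, and IFNGR2, which holds JAK2. Type I interferons bind IFNAR1, which holds TYK2, and IFNAR2, which holds JAK1, so that JAK1 serves both receptors, and the kinases pass the signal to STAT transcription factors. UBA1 activates ubiquitin for a large set of ligases, and STUB1 (also called CHIP) is a ligase that works with the chaperones HSP70 and HSP90. The study examined STUB1 as a ligase that acts on JAK1. RNA is the sole readout here, and protein amount or ubiquitination was not measured in these libraries.

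The guides against Uba1 are shown because they define the sgUba1 groups. In the lines that follow, 20 bases of target are in lower case and the PAM is in capitals, 5′ to 3′.
sgUba1 #1: taccaatgtcctcctcccgaAGG
sgUba1 #2: tagccgtggtatcaagctagTGG
Both targets were found in exons of Uba1 (GRCm38). The target of sgUba1 #1 lies at chrX:20669136-20669155 on the minus strand, in exon 5 or 6 of 4 of 6 annotated transcripts, and that of sgUba1 #2 lies at chrX:20670263-20670282 on the plus strand, in exon 6 or 7 of 3 of 6. A change of a few bases at such a site can leave RNA in place, so that Uba1 RNA is an indirect check of these groups.

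The genes lie on 6 chromosomes (GRCm38, GENCODE). Ifnar2 (chr16:91372783-91405589), Ifnar1 (chr16:91485238-91507441) and Ifngr2 (chr16:91547072-91565623) lie near one another on the plus strand of chromosome 16. Ifngr1 lies at chr10:19591949-19610229, Jak1 at chr4:101152367-101265282 (minus strand), Jak2 at chr19:29251828-29313080, Tyk2 at chr9:21104068-21131243 (minus strand) and Stub1 at chr17:25830505-25833404 (minus strand). Upstream sequence from RefSeq (GRCm38.p6) is shown for Jak1 and Ifngr2, the members whose RNA was higher with TAK-243 in cells, for Jak2, whose RNA was lower, and for Ifnar2, which holds a match to the GAS motif (capitals). All 8 members matched a promoter window.
Jak1 (chr4:101265283-101265473, minus strand): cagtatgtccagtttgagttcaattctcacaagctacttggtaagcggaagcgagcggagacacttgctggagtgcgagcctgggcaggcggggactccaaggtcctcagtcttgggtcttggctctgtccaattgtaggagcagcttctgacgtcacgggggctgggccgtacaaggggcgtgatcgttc
Ifngr2 (chr16:91546809-91547058, plus strand): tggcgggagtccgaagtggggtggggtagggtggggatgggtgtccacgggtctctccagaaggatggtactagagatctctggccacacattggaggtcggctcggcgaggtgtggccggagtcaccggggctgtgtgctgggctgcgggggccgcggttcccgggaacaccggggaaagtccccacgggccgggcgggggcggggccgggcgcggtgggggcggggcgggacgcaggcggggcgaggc
Jak2 (chr19:29251553-29251802, plus strand): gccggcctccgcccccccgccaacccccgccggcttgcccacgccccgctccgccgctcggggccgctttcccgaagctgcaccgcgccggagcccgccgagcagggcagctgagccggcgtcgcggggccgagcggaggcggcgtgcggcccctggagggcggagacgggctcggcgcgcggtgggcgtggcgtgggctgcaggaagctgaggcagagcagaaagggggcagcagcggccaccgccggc
Ifnar2 (chr16:91372533-91372782, plus strand): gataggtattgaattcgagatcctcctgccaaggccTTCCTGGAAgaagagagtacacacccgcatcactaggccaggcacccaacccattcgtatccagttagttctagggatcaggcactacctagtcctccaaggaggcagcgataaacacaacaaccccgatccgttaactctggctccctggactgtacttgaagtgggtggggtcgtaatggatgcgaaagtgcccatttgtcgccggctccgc
The GAS motif, the site through which IFN-γ acts on its target genes, was searched as TTCNNNGAA and the ISRE core, the site for the type I interferon complex, as GAAANNGAA, both on either strand and from 250 bases before to 50 bases after the RefSeq start. Of 32851 promoter windows, 2726 (8.3%) held the GAS letters and 2812 (8.56%) the ISRE core. Among the 8 members, Ifnar1 held a GAS match (TTCACGGAA, at -5 from the start) and Ifnar2 held another (TTCCTGGAA, at -214 from the start). The windows of the other 6 held neither string. The upstream 250 bases had a GC content of 61.2% for Jak1, 74% for Ifngr2, 80.8% for Jak2 and 54% for Ifnar2.

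Library totals ran from 8652097 to 38032395 expected counts, with the fewest in the OE and EV tumors, and mitochondrial transcripts made up 1.397 to 4.413% of a library. Uba1 itself lay at 146.0, 158.1 and 152.9 TPM (scaled for gene length and library size) in the B16-BL6 controls and at 80.7 to 93.0 TPM in the tumors labelled sgUba1, with no overlap (log2 fold change -0.92, adjusted p = 0.000294, edgeR with its quasi-likelihood test). In the Myc-CaP tumors, the controls lay at 319.6 to 337.0 CPM (counts scaled for library size alone), replicates 1 to 3 of the libraries labelled sgUba1 at 197.4 to 210.5 CPM, and replicates 4 to 7 at 361.4 to 383.2 CPM, above every control. Uba1 was therefore not lower over all 7 (log2 fold change -0.13, adjusted p = 0.787), and results of that comparison are given with and without those 4 libraries. Uba1 was higher in OE tumors (log2 fold change 1.27, adjusted p = 0.00503), and lower in sgUba1 cells without IFN-γ (-0.87, adjusted p = 3.71e-07) and with it (-1.13, adjusted p = 5.06e-08). Summed over 7 melanocyte markers, B16-BL6 tumors held 10268 to 12233 TPM and no Myc-CaP library held over 16.3 TPM, although the labels give both lines the cell type epithelial. Of 7 prostate epithelial markers, 4 or 5 had a median of at least 1 TPM in each of the 8 cell groups. The leukocyte marker Ptprc was at 0 to 0.0881 TPM in cells and at 1.34 to 23.5 TPM in tumors, so tumor values mix cancer cells with other cells, and in bulk RNA fewer cells of a type and less RNA per cell cannot be told apart.

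All 8 members were read in every library, with the lowest estimate at 69.5 expected counts (Ifngr2) and the highest at 6290 (Jak2), and all 8 passed the filter on low counts in each comparison. Stub1 had the highest median TPM of the 8 over the 51 libraries (65.0, range 35.6 to 95.02). Jak1 (44.0, 32.5 to 120.4), Jak2 (30.6, 19.3 to 58.5) and Ifnar2 (29.5, 13.4 to 53.0) came next in median TPM. Ifnar1 stood at 22.9 TPM (11.9 to 41.2), Ifngr1 at 19.5 (10.99 to 34.2), Tyk2 at 15.96 (8.82 to 28.4) and Ifngr2 at 7.85 (1.72 to 48.2). Ifngr2 thus had the lowest median and the widest range as a ratio of highest to lowest, while in TPM itself the range of Jak1 was the widest.

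**Figure D1:**
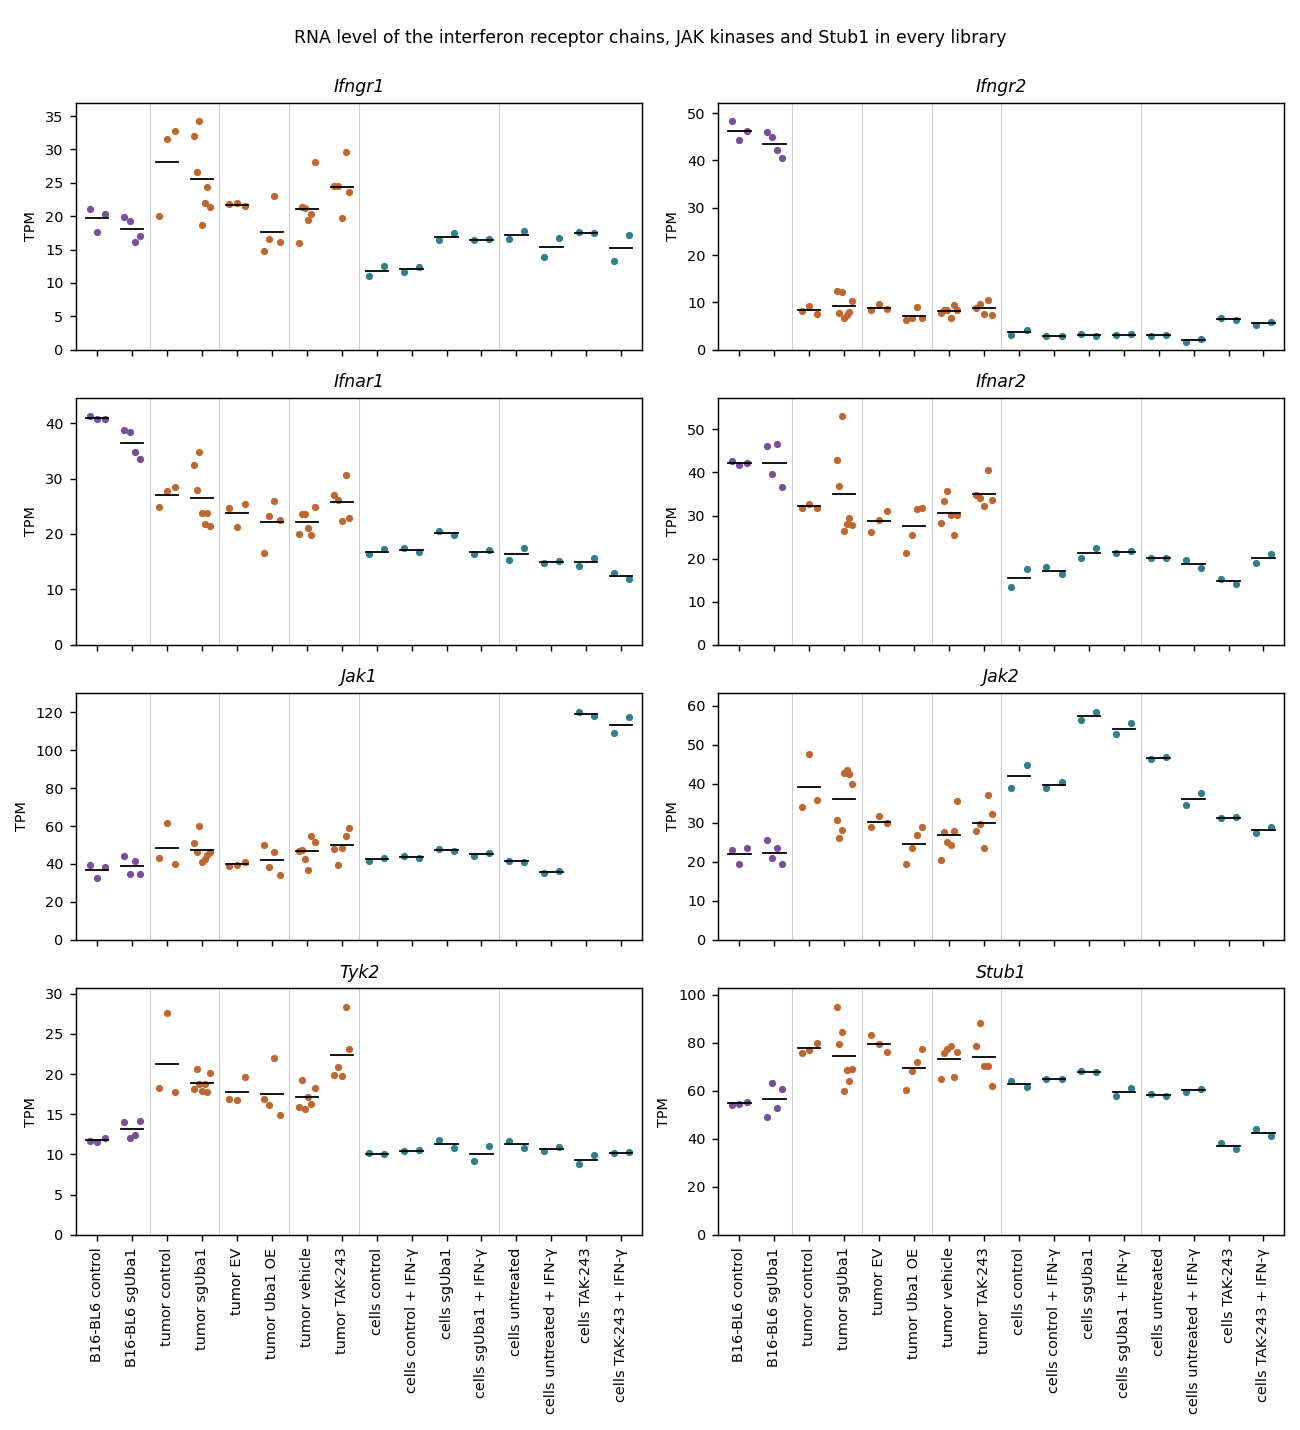
TPM of each member (y axis, from 0) in every library, by group on the x axis, with points for libraries, a bar for the group mean, purple for B16-BL6 tumors, orange for Myc-CaP tumors and teal for Myc-CaP cells. Jak1 stands at 109.0 to 120.4 TPM in cells with TAK-243 and at or under 61.7 TPM in all other libraries, and Ifngr2 stands at 40.5 to 48.2 TPM in B16-BL6 tumors and at or under 12.5 TPM elsewhere.

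The order of the groups by mean TPM differed from gene to gene. For Jak1, cells with TAK-243 came first (119 ± 1.82 TPM, SD, n = 2), then cells with TAK-243 and IFN-γ (113 TPM), and both stood apart from the next group, the TAK-243 tumors (50.0 TPM). Below these, neighbours in the order overlapped except for sgUba1 cells with IFN-γ and control cells with IFN-γ, at 45.0 and 43.6 TPM. For Jak2, the top places went to sgUba1 cells without IFN-γ (57.4 TPM) and with it (54.1 TPM), then untreated cells (46.6 TPM), each apart from the next, and the last to the B16-BL6 tumors (22.4 and 21.9 TPM), which overlapped. For Tyk2, the 6 Myc-CaP tumor groups (17.1 to 22.4 TPM, each overlapping the next) stood apart from B16-BL6 tumors and cells (9.35 to 13.2 TPM).

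Among the receptor chains, Ifngr1 was highest in Myc-CaP control tumors (28.1 TPM) and lowest in nontargeting control cells (11.8 TPM), with overlap at each step but the one to nontargeting control cells with IFN-γ (12.0 TPM). Ifngr2 in B16-BL6 tumors (46.2 and 43.4 TPM) stood far above the 6 Myc-CaP tumor groups, which lay at 7.18 to 9.25 TPM and overlapped. In cells without the drug Ifngr2 lay at 1.94 to 3.63 TPM, and with it at 5.60 and 6.48 TPM, apart from the other cells. The cells with TAK-243 alone overlapped the OE tumors. Ifnar1 followed a similar order, with B16-BL6 controls (40.9 TPM) apart from B16-BL6 tumors labelled sgUba1 (36.4 TPM), then Myc-CaP tumors (22.1 to 27.0 TPM, overlapping) and cells (12.5 to 20.2 TPM), of which sgUba1 cells overlapped the OE tumors. Ifnar2 led in B16-BL6 tumors (42.3 and 42.1 TPM), ahead of Myc-CaP tumors (27.5 to 35.0 TPM), although single tumors labelled sgUba1 reached 53.0 TPM. Stub1 was highest in EV tumors (79.6 TPM) and lowest in cells with TAK-243 (37.0 TPM), which stood apart from cells with TAK-243 and IFN-γ (42.6 TPM) and from all others. The tumor lines, hosts and cultures were separate experiments, so these levels are a description, with no test.

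TAK-243 in cultured cells raised Jak1 and Ifngr2 RNA and lowered Jak2, Ifnar1 and Stub1 RNA. Without IFN-γ, 2 members were called higher and 3 lower, 5 of 8, where 66.3% of the 14551 genes tested were called (edgeR's quasi-likelihood test, Benjamini-Hochberg adjustment over all genes, threshold 0.05), so the number of calls is close to that of genes at large. With IFN-γ in both arms, 2 were called higher and 4 lower, 6 of 8, where 68.2% of genes were called. The median log2 fold change of the members was -0.13 without IFN-γ and -0.23 with it, against 0.03 and 0.02 over all genes tested. The comparisons in this experiment share control libraries.

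Jak1, the kinase of both receptors, lay at 41.7 and 41.2 TPM in untreated cells and at 120.4 and 117.8 TPM with TAK-243. With IFN-γ it lay at 35.1 and 36.5 TPM without the drug and at 109.0 and 117.2 TPM with it. Every treated library thus stood above every other library of the series. The log2 fold change was 1.51 (SE 0.033, 2.85-fold, 95% interval 2.72 to 2.99, adjusted p = 8.29e-26) without IFN-γ and 1.49 (SE 0.033, 2.80-fold, interval 2.67 to 2.93, adjusted p = 1.08e-25) with it. Over all alternatives for this comparison Jak1 kept its direction and its call.

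Ifngr2, the chain of the IFN-γ receptor that holds JAK2, lay at 2.90 and 3.19 TPM in untreated cells and at 6.73 and 6.22 TPM with TAK-243. With IFN-γ it lay at 1.72 and 2.16 TPM, and at 5.27 and 5.94 TPM with both. The groups did not overlap. The log2 fold change was 1.11 (SE 0.13, adjusted p = 1.09e-08) without IFN-γ and 1.37 (SE 0.14, adjusted p = 7.25e-10) with it. Ifngr1, the ligand-binding chain of the same receptor, lay at 16.5 and 17.8 TPM in untreated cells and at 17.6 and 17.5 TPM with the drug, so its groups overlapped. Its log2 fold change was 0.05 (95% interval -0.17 to 0.27, adjusted p = 0.687). Under IFN-γ the same comparison gave -0.16 (interval -0.38 to 0.06, adjusted p = 0.203), and a call without replicate 2 of the cells with both (-0.37, adjusted p = 0.0159).

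Jak2, the kinase that sits on IFNGR2, moved the other way. It lay at 46.4 and 46.8 TPM in untreated cells and at 31.1 and 31.6 TPM with TAK-243, and at 34.6 and 37.6 against 27.4 and 28.9 TPM with IFN-γ, with no overlap in either. The log2 fold change was -0.54 (SE 0.043, adjusted p = 3.32e-12) without IFN-γ and -0.52 (SE 0.044, adjusted p = 1.14e-11) with it. Stub1 lay at 58.8 and 57.8 TPM in untreated cells and at 38.3 and 35.6 TPM with TAK-243, and with IFN-γ at 59.5 and 60.9 against 43.9 and 41.2 TPM. The treated libraries were the lowest for Stub1 in the series. Its log2 fold change was -0.57 both without IFN-γ (SE 0.067, adjusted p = 9.52e-09) and with it (SE 0.064, adjusted p = 3.27e-09). Jmjd8, a gene on the opposite strand that overlaps Stub1, fell from 4.12 and 4.40 TPM to 0.826 and 1.33 TPM in the same libraries, and whether reads were assigned by strand is not given in the sources used here.

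The chains of the type I interferon receptor changed less. Ifnar1 lay at 15.3 and 17.5 TPM in untreated cells and at 14.3 and 15.7 TPM with TAK-243, which overlap, and its log2 fold change was -0.30 (SE 0.084, adjusted p = 0.00282). With IFN-γ it lay at 14.8 and 15.0 against 13.0 and 11.9 TPM (log2 fold change -0.50, adjusted p = 5.77e-06). On the scale log2(TPM + 1) neither Ifnar1 call held (-0.12, adjusted p = 0.314, and -0.24, adjusted p = 0.063), and the call without IFN-γ was lost without replicate 2 of the untreated cells (-0.18, adjusted p = 0.116). Ifnar2 gave the opposite case, with no call on counts (log2 fold change -0.09, adjusted p = 0.525) and one on log2(TPM + 1) (-0.43, adjusted p = 0.00334), from 20.05 and 20.2 TPM to 15.2 and 14.2 TPM. Gm21970, which overlaps Ifnar2, rose from 0 and 0.341 TPM to 1.54 and 2.53 TPM in those libraries, and its part in the Ifnar2 values was not tested. For Tyk2, the kinase of IFNAR1, the log2 fold change was -0.17 (adjusted p = 0.111) without IFN-γ, and passed without replicate 2 of the treated cells (-0.28, adjusted p = 0.0301). With IFN-γ it was -0.30 (adjusted p = 0.00415), where the TPM values were 10.4 and 10.9 against 10.2 and 10.3. That call was lost with DESeq2 (-0.27, adjusted p = 0.0509), on log2(TPM + 1) (-0.06, adjusted p = 0.631) and without replicate 2 of the cells with both (-0.23, adjusted p = 0.0709). Summed prostate epithelial markers fell from 1478 and 1485 TPM to 492 and 518 TPM with TAK-243, and their part in these results was not tested.

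In cultured cells Jak2, Ifngr1 and Ifnar2 RNA was higher in sgUba1 than in nontargeting control cells, and Ifnar1 and Jak1 RNA was higher by less. Untreated cells of the other experiment lay near sgUba1 cells in mean TPM without IFN-γ for Ifngr1 (17.2 and 16.9) and Ifnar2 (20.1 and 21.3). For Jak2 (46.6), Ifnar1 (16.4) and Jak1 (41.4) they lay nearer the nontargeting controls. Whether the guide or the cloned line accounts for the differences was not tested. Without IFN-γ, 5 of 8 were called higher and 0 lower (limma-voom called 5, DESeq2 3), where 29.7% of the 15530 genes tested were called. The members' median log2 fold change was 0.16 against -0.00156 over all genes tested. Jak2 lay at 39.0 and 44.8 TPM in control cells and at 56.3 and 58.5 TPM in sgUba1 cells, with a log2 fold change of 0.44 (SE 0.049, adjusted p = 7.88e-05). Ifngr1 lay at 10.99 and 12.5 against 16.4 and 17.5 TPM (0.49, SE 0.078, adjusted p = 0.000695). Ifnar2 lay at 13.4 and 17.6 against 20.2 and 22.4 TPM (0.48, SE 0.11, adjusted p = 0.00502). The sgUba1 libraries were higher with no overlap in each of these 3 genes, and also in Ifnar1 and Jak1. How many of all genes separate in this way was not counted. Ifnar1 lay at 16.3 and 17.2 against 20.6 and 19.8 TPM (0.18, adjusted p = 0.0289) and Jak1 at 41.6 and 43.2 against 48.1 and 47.0 TPM (0.14, SE 0.045, 1.10-fold, adjusted p = 0.0339). Those last calls were lost with DESeq2 (Ifnar1 adjusted p = 0.109, Jak1 0.0838) and without either sgUba1 library, where Jak1 gave adjusted p = 0.372 and 0.0892. Tyk2 (0.06), Ifngr2 (-0.25, adjusted p = 0.171) and Stub1 (0.08, adjusted p = 0.223) did not pass, and Ifngr2 did without replicate 1 of the controls (-0.40, adjusted p = 0.027).

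With IFN-γ in both arms, 3 members were called higher and 1 lower, where 39.4% of genes were called. Jak2 lay at 38.9 and 40.5 against 52.7 and 55.6 TPM (log2 fold change 0.48, SE 0.049, adjusted p = 2.07e-05), and Ifngr1 at 11.6 and 12.4 against 16.4 and 16.6 TPM (0.46, SE 0.076, adjusted p = 0.000582). Ifnar2 lay at 17.95 and 16.3 against 21.2 and 21.7 TPM (0.38, adjusted p = 0.011). Jak1 lay at 44.0 and 43.1 against 44.4 and 45.6 TPM, with a log2 fold change of 0.02 (95% interval -0.08 to 0.12, adjusted p = 0.731). Stub1 lay at 65.0 and 64.7 against 57.7 and 60.9 TPM, without overlap (-0.13, SE 0.045, adjusted p = 0.0428). The Stub1 call was lost with DESeq2 (adjusted p = 0.232), limma-voom (0.0519), RLE normalization (0.074), no filter (0.115), on log2(TPM + 1) (0.123) and without any 1 of the 4 libraries compared. The Ifnar2 call was lost on log2(TPM + 1) (adjusted p = 0.112) and without replicate 2 of the stimulated controls (0.0946).

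**Figure D2:**
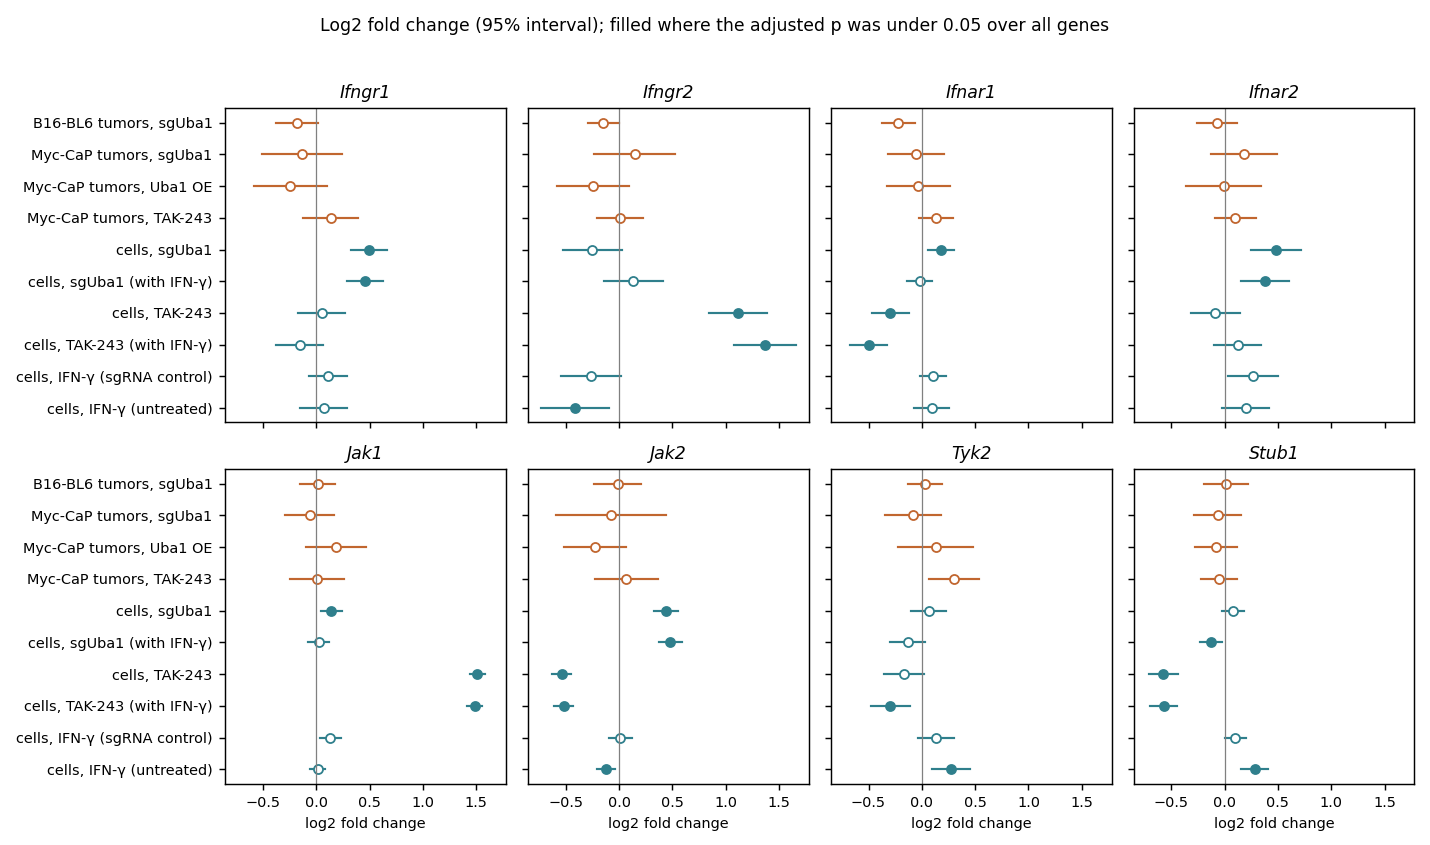
Log2 fold change of each member (x axis) in 10 comparisons (rows), with bars for 95% intervals, orange for tumors and teal for cells. Filled points passed an adjusted p of 0.05 over all genes tested. Jak1 and Ifngr2 stand above 1 with TAK-243 in cells, Jak2 lies on opposite sides of 0 for sgUba1 and TAK-243 in cells, and all tumor points are open.

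The effects of TAK-243 and of sgUba1 in cells were set against each other in a fit of all 16 cell libraries, each effect taken against its own controls. The difference passed the test for 7 of 8 members without IFN-γ (2 higher with TAK-243, 5 lower), where 55.3% of the 15708 genes tested passed, and for 6 of 8 with it (2 higher, 4 lower), where 56.7% passed. Jak1 differed by 1.35 on the log2 scale without IFN-γ (95% interval 1.23 to 1.47, adjusted p = 1.71e-13) and by 1.45 with it (adjusted p = 5.96e-14). Ifngr2 differed by 1.34 (adjusted p = 3.79e-06) and 1.22 (adjusted p = 1.9e-05). Jak2 differed by -0.9999 (95% interval -1.14 to -0.86, adjusted p = 1.09e-10) and -1.01 (adjusted p = 8.4e-11), and Stub1 by -0.67 (adjusted p = 2.23e-07) and -0.46 (adjusted p = 1.97e-05). Of the other receptor chains, Ifngr1 differed by -0.46 and -0.63, Ifnar1 by -0.49 in both, and Ifnar2 by -0.59 (adjusted p = 0.00308) and -0.27, the last not past the threshold (adjusted p = 0.132). On log2(TPM + 1), the Ifnar1 difference with IFN-γ was -0.21 (adjusted p = 0.148). Tyk2 did not pass in either (-0.25, adjusted p = 0.0825, and -0.18, adjusted p = 0.213), but the first passed on log2(TPM + 1) (-0.39, adjusted p = 0.0311) and without replicate 2 of the untreated, TAK-243 or sgUba1 cells (adjusted p = 0.0448, 0.0479 and 0.0489). Genotype and drug were read in separate experiments, and a cloned line and 18 hours of drug differ in duration.

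In untreated cells of the TAK-243 experiment, Ifngr2 and Jak2 RNA was called lower and Stub1 and Tyk2 RNA higher with IFN-γ, on counts. The direction for Tyk2 turned on the TPM scale, and Stub1 was not called there. No member passed the test in nontargeting control cells. In nontargeting control cells 0 of 8 members were called by edgeR, by DESeq2 or by limma-voom, where 3.88% of genes were called by edgeR, and 3 members had an unadjusted p under 0.05. Their log2 fold changes lay between -0.26 (Ifngr2, adjusted p = 0.246) and 0.26 (Ifnar2, adjusted p = 0.171). Without replicate 1 of the unstimulated controls Ifngr2 passed (-0.41, adjusted p = 0.0446), and without replicate 2 Ifnar2 passed (0.47, adjusted p = 0.0136). In untreated cells of the TAK-243 experiment 4 of 8 were called, 2 higher and 2 lower, where 29.0% of genes were called. Stub1 (log2 fold change 0.28, adjusted p = 0.000811) and Tyk2 (0.27, adjusted p = 0.0192) were higher, and Ifngr2 (-0.41, adjusted p = 0.0487) and Jak2 (-0.13, adjusted p = 0.0216) were lower. DESeq2 called 1 of them, Stub1.

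These calls also moved with the scale. In TPM, Ifngr2 fell from 2.90 and 3.19 to 1.72 and 2.16, Jak2 from 46.4 and 46.8 to 34.6 and 37.6 and Jak1 from 41.7 and 41.2 to 35.1 and 36.5, while Tyk2 lay at 11.7 and 10.8 before and 10.4 and 10.9 after. On log2(TPM + 1) Jak1 turned from 0.01 to -0.20 (adjusted p = 0.0261) and Tyk2 from 0.27 to -0.07, on a scale where the median of all genes lay at -0.14, and Stub1 gave 0.05 (adjusted p = 0.618). Ifngr2 was lower after IFN-γ in both experiments in every fit tried. Its call in untreated cells was lost with DESeq2 (adjusted p = 0.134), limma-voom (0.0804) and no filter (0.0729). Replicate 1 of the unstimulated or of the stimulated cells and replicate 2 of the unstimulated cells each took that call away when left out (adjusted p = 0.0757, 0.376 and 0.222). Tyk2 was no longer called without replicate 2 of either arm (adjusted p = 0.202 and 0.153), nor Jak2 without 3 of the 4 libraries (adjusted p = 0.0926 to 0.257).

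For no member was the response to IFN-γ shown to differ with sgUba1 or with TAK-243. The interaction of sgUba1 with IFN-γ was called for 0 of 8 members by edgeR, DESeq2 and limma-voom (4.64% of genes by edgeR, 2 members at an unadjusted p under 0.05). Stub1 gave -0.21 (SE 0.064, adjusted p = 0.0895) and passed when either unstimulated control was left out (adjusted p = 0.022 and 0.0464), and Ifngr2 gave 0.38 (95% interval -0.01 to 0.78, adjusted p = 0.243). For Jak1 it was -0.12 (interval -0.26 to 0.02). The interaction of TAK-243 with IFN-γ was likewise called for 0 of 8 by all 3 tools (2.38% of genes by edgeR, 0 members at an unadjusted p under 0.05), with Jak1 at -0.03 (interval -0.12 to 0.07) and Stub1 at 0.000992 (interval -0.19 to 0.19).

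In tumors, no member passed the test in any of the 4 comparisons by edgeR, DESeq2 or limma-voom. In B16-BL6 tumors 0 of 8 were called (0.724% of the 17539 genes tested were), and 2 members had an unadjusted p under 0.05. Ifnar1 was the nearest to a call, at 41.2, 40.7 and 40.7 TPM in controls and 38.8, 38.4, 34.8 and 33.5 TPM in the libraries labelled sgUba1, with no overlap (log2 fold change -0.22, SE 0.069, adjusted p = 0.181). Ifngr2 lay at 48.2, 44.2 and 46.2 TPM against 46.1, 44.9, 42.1 and 40.5 TPM (-0.15, adjusted p = 0.298), and Ifngr1 gave -0.18 (adjusted p = 0.353). Jak1 lay at 39.7, 32.5 and 38.2 TPM in controls and 44.2, 34.8, 41.7 and 34.6 TPM with the guide, which overlap (0.01, 95% interval -0.15 to 0.18). Jak2 (-0.01), Tyk2 (0.03), Ifnar2 (-0.07) and Stub1 (0.01) lay within 0.1 of no change. Ptprc, a marker of leukocytes, lay at 1.34 to 2.94 TPM in controls and 4.87 to 6.23 TPM in tumors labelled sgUba1, and its part in these values was not tested.

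In Myc-CaP tumors labelled sgUba1, 0 of 8 members were called (3.04% of the 16202 genes tested were), and 0 had an unadjusted p under 0.05. Jak1 lay at 43.2, 61.7 and 40.1 TPM in controls and between 41.2 and 60.2 TPM (median 46.1) in the libraries labelled sgUba1, with a log2 fold change of -0.06 (interval -0.29 to 0.16). Jak2 lay at 34.0, 47.6 and 35.9 TPM in controls, at 30.6, 26.0 and 28.0 TPM in replicates 1 to 3 of the libraries labelled sgUba1, which were also the libraries with lower Uba1, and at 42.8, 43.6, 42.5 and 40.0 TPM in replicates 4 to 7. Over all 7 its log2 fold change was -0.07 (SE 0.23, adjusted p = 0.88), and without replicates 4 to 7, a choice made after seeing the data, it was -0.58 (adjusted p = 0.122). Ifnar2 showed the reverse order, at 31.8, 32.8 and 31.7 TPM in controls, 43.0, 36.8 and 53.0 TPM in replicates 1 to 3 and 26.3 to 29.5 TPM in replicates 4 to 7 (0.18 over all 7, adjusted p = 0.46, and 0.32 without the last 4, adjusted p = 0.276). Without them Jak1 gave -0.05, and Ifngr1 (from -0.14 to 0.02), Ifnar1 (from -0.06 to 0.09) and Stub1 (from -0.07 to 0.05) changed sign, none called. Tyk2 gave -0.08 over all 7 and -0.18 without the last 4, and Ifngr2 gave 0.15 and 0.26, none called. Leaving out those 4 libraries, 0 members and 1 gene in all were called, against 492 genes over all 7. Ptprc lay at 4.07 to 6.86 TPM in controls and 8.35 to 23.5 TPM in the libraries labelled sgUba1.

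In OE tumors 0 of 8 members were called (0.0269% of the 14853 genes tested, 4 genes, were), and 0 had an unadjusted p under 0.05. Jak1 lay at 38.9, 39.4 and 41.3 TPM in EV tumors and 50.0, 38.6, 46.2 and 34.3 TPM in OE tumors, which overlap (log2 fold change 0.19, interval -0.09 to 0.47, adjusted p = 0.444). Jak2 lay at 28.9, 31.7 and 29.9 TPM against 19.5, 23.5, 26.9 and 28.9 TPM (-0.22, adjusted p = 0.376). Ifngr1 (-0.24, adjusted p = 0.423) and Ifngr2 (-0.24, adjusted p = 0.406) were each lower in 3 of the 4 OE libraries than in every EV library, and replicate 3 stood apart from the others. Stub1 gave -0.08 (interval -0.28 to 0.12). Ptprc was lower in OE tumors (2.92 to 5.28 TPM) than in EV tumors (8.50 to 15.0 TPM). Summed over 5 skeletal muscle markers, OE tumors held 9.25 to 388 TPM (median 68.6) and EV tumors 8.88 to 13.8 TPM, with Myh4 at 0 in every EV library. The part of these markers in the OE values was not tested.

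In tumors of mice given TAK-243, 0 of 8 members were called (0.145% of the 17299 genes tested were), with 1 member at an unadjusted p under 0.05. That member was Tyk2, at 15.6 to 19.3 TPM (median 16.7) with vehicle and at 19.9, 20.9, 19.8, 28.4 and 23.1 TPM with TAK-243, without overlap (log2 fold change 0.30, SE 0.11, adjusted p = 0.238). Jak1 lay at 36.8 to 54.6 TPM (median 47.3) with vehicle and at 48.0, 39.6, 48.3, 54.7 and 59.2 TPM with TAK-243, which overlap. Its log2 fold change was 0.01 (95% interval -0.24 to 0.26) in tumors, beside 1.51 (1.45 to 1.58) in cells. For Ifngr2 the values were 0.01 (-0.20 to 0.22) and 1.11 (0.85 to 1.38), for Jak2 0.07 (-0.23 to 0.36) and -0.54 (-0.63 to -0.45), and for Stub1 -0.05 (-0.22 to 0.11) and -0.57 (-0.71 to -0.44). Dose, time and route differ between the tumors and the cells, so these values stand side by side without a test. Ptprc lay at 3.14 to 6.84 TPM with vehicle and 4.80 to 10.2 TPM with TAK-243. Summed macrophage markers lay at 173 to 265 TPM (median 213) and 165 to 398 TPM (median 360). Summed keratinocyte markers reached 0.28 and 72.7 TPM, and summed skeletal muscle markers 336 and 32.9 TPM, in that order. The part of these markers in the tumor values was not tested.

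A ratio of members within a library does not depend on how libraries were scaled. Jak1 to Jak2, the pair of kinases on the IFN-γ receptor, stood at a log2 TPM ratio of -0.19 to -0.15 in untreated cells and 1.90 to 1.95 with TAK-243, that is from 0.879 to 0.898 up to 3.73 to 3.87 Jak1 transcripts per Jak2 transcript. In sgUba1 cells the same ratio was lower, at -0.27 ± 0.063 against 0.02 ± 0.10 (SD, n = 2) in control cells. Untreated cells of the other experiment, with a mean of -0.17, lay nearer the sgUba1 cells. In Myc-CaP tumors Jak1 to Jak2 stood at 0.16 to 0.37 in controls. It was higher in replicates 1 to 3 of the libraries labelled sgUba1 (0.74, 0.83 and 1.10), and at -0.06 to 0.21 in replicates 4 to 7. In B16-BL6 tumors controls (0.697 to 0.79) and libraries labelled sgUba1 (0.72 to 0.84) overlapped. With IFN-γ the means in cells were -0.27 and 0.13 for sgUba1 and control, and 2.01 and -0.01 for TAK-243 and untreated cells, with no overlap. Jak1 to Stub1, the kinase against the ligase gene, stood at -0.49 in untreated cells and 1.69 with TAK-243, while sgUba1 (-0.51) and control cells (-0.57) overlapped without IFN-γ and stood apart with it (-0.40 and -0.57). In all 35 tumor libraries Jak1 stood below Stub1. Jak1 to Ifngr1 rose from 1.27 in untreated cells to 2.76 with TAK-243, without overlap. It was lower in sgUba1 (1.49) than in nontargeting control cells (1.85), also without overlap, and the untreated cells lay below both. Whether guide or cloned line accounts for the lower Jak1 to Jak2 and Jak1 to Ifngr1 ratios in sgUba1 cells was not tested. The same ratio stood higher in OE (1.002 to 1.76) than in EV tumors (0.84 to 0.94), where Ptprc was lower in OE tumors and the summed muscle markers reached higher.

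Between receptor chains, Ifngr1 to Ifngr2 separated the lines. The log2 TPM ratio was -1.39 to -1.18 in B16-BL6 tumors, where Ifngr2 was the more abundant chain, and 1.02 to 2.10 in Myc-CaP tumors, where Ifngr1 was. In cells it stood at 2.50 untreated, 1.44 with TAK-243, 1.71 in nontargeting controls and 2.44 with sgUba1. Cells with TAK-243 and sgUba1 cells thus differed from their own controls in opposite directions, each beyond the spread of the pair of libraries. The sgUba1 cells lay near the untreated cells of the other experiment, and whether guide or cloned line accounts for their difference from controls was not tested. IFN-γ raised the ratio in both experiments, to 2.98 in untreated cells and 2.07 in nontargeting controls. Ifnar1 to Ifnar2 lay between -0.82 and 0.29 in every library. Without IFN-γ its difference between TAK-243 and untreated cells was 0.33 in TPM and -0.20 in CPM, so its direction there depends on the unit. With IFN-γ in both arms the difference was -0.35 in TPM and -0.62 in CPM.

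**Figure D3:**
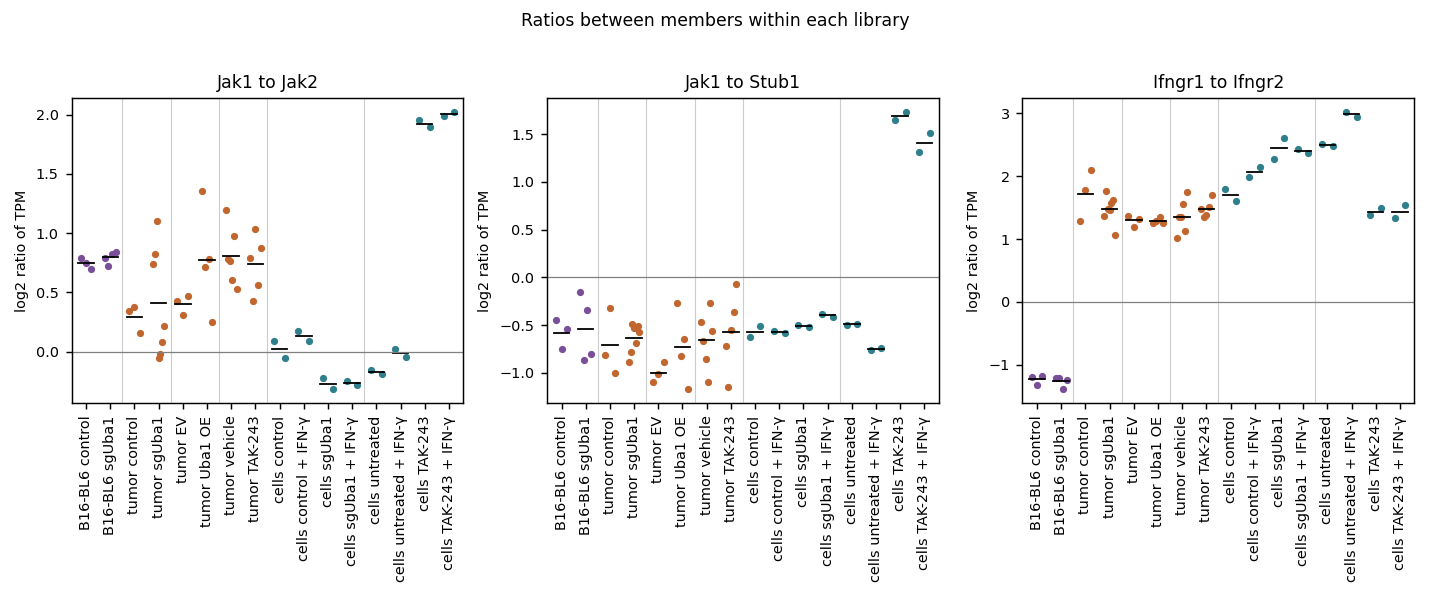
Log2 ratio of TPM within each library (y axis) for 3 pairs of members, by group on the x axis, with points for libraries, bars for group means, purple for B16-BL6 tumors, orange for Myc-CaP tumors and teal for cells. Jak1 to Jak2 and Jak1 to Stub1 stand above all other groups in cells with TAK-243, and Ifngr1 to Ifngr2 lies below 0 in B16-BL6 tumors alone.

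Genes that work with the members were counted from lists by role. The interferon ligands (Ifng, Ifnb1 and 8 others) were too low to test in any comparison, with 0 of 10 past the filter and no library above 0.844 TPM or 6 expected counts. Jak3, the remaining JAK kinase, was tested in tumors alone and passed in none of the 4 comparisons. Of 6 STATs and IRFs that carry the interferon signal, 0 were called in any tumor comparison, 3 were higher and 0 lower with sgUba1 in cells (29.7% of all genes tested were called), and 5 higher and 0 lower with sgUba1 under IFN-γ (39.4% of all genes). Stat5a, a STAT used by cytokine receptors that signal through JAK2, gave log2 fold changes of 1.24 (adjusted p = 0.000213) and 1.29 (adjusted p = 0.000127) with sgUba1 without and with IFN-γ. Irf1, a transcription factor gene induced by IFN-γ, lay at 30.5 and 32.1 TPM in stimulated control cells and at 54.0 and 57.0 TPM in stimulated sgUba1 cells (log2 fold change 0.79, adjusted p = 3.64e-06), with an interaction of 0.96 (adjusted p = 0.00089). Under TAK-243 without IFN-γ 4 were higher and 0 lower, close to the 66.3% of all genes called, with Irf1 at 0.83 (adjusted p = 2.91e-11). IFN-γ alone raised 4 of the 6 in untreated cells (29.0% of all genes were called), among them Irf1 (1.63) and Irf9 (1.09), and 2 in nontargeting controls (Irf1 0.64, Irf9 0.44, with 3.88% of all genes called), so that both genes rose in both experiments.

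Among 12 brakes on JAK signaling, 11 were tested in the TAK-243 experiment, with 7 higher and 3 lower without IFN-γ, where 66.3% of all genes were called. Socs1, which blocks JAK kinases, rose from 0.579 and 0.730 TPM to 6.45 and 6.61 TPM (log2 fold change 3.36, adjusted p = 2.08e-15) and Socs2 fell (-1.13, adjusted p = 3.11e-13). With sgUba1 4 of 12 were higher and 3 lower, among the latter Socs3 (-0.46, adjusted p = 0.00815), where 29.7% of all genes were called. Usp18, which restrains IFNAR2 signaling, passed with 5 and 9 against 0 and 1 expected counts, too few for a fold. Of 16 other receptors that use JAK1, 7 were tested with TAK-243, with 3 higher and 1 lower, a share below the 66.3% of all genes. Il4ra, a chain of the IL-4 receptor, rose from 1.85 and 2.76 TPM to 7.10 and 7.55 TPM (1.90, adjusted p = 2.48e-13). Il10rb, the neighbour of Ifnar2 and Ifnar1 on chromosome 16 and a chain of the IL-10 receptor, rose with TAK-243 (0.58, adjusted p = 0.00052). It was also higher in sgUba1 than in nontargeting control cells (0.92, adjusted p = 6.52e-05), at 8.43 against 4.37 mean TPM. Untreated cells of the other experiment lay at 6.83 TPM, nearer the sgUba1 cells. Whether guide or cloned line accounts for the Il10rb difference was not tested.

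The STUB1 partners, chaperones and E2 enzymes that act with the ligase, were for the most part higher with TAK-243, where Stub1 itself was lower. Without IFN-γ 15 of 19 were higher and 3 lower (median log2 fold change 0.95, against 0.03 over all genes, of which 66.3% were called), and with IFN-γ 13 were higher and 4 lower (0.84, with 68.2% of all genes called). Hsp90aa1, an inducible HSP90, rose from 942 and 962 TPM to 3476 and 3515 TPM (1.90, adjusted p = 1.37e-31), and Dnajb1, an HSP40 co-chaperone, rose by 1.45 (adjusted p = 3.88e-19). Hspa1a (1.44) and Hspa1b (1.54), the inducible HSP70 genes, are near-identical copies, so the split between them is uncertain. With sgUba1 without IFN-γ 3 of 19 were higher and 3 lower (median -0.01), close to the 29.7% of all genes called, St13, the HSP70-interacting protein gene, being lower (-0.55, adjusted p = 4.52e-05). With sgUba1 under IFN-γ 3 were higher and 7 lower (median -0.05), where 39.4% of all genes were called. No partner was called in tumors. Of the ubiquitin E1 genes, both rose with TAK-243 in cells, Uba6 by 0.62 (adjusted p = 4.07e-12) and Uba1 by 0.37 (adjusted p = 5.68e-12).

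**Figure D4:**
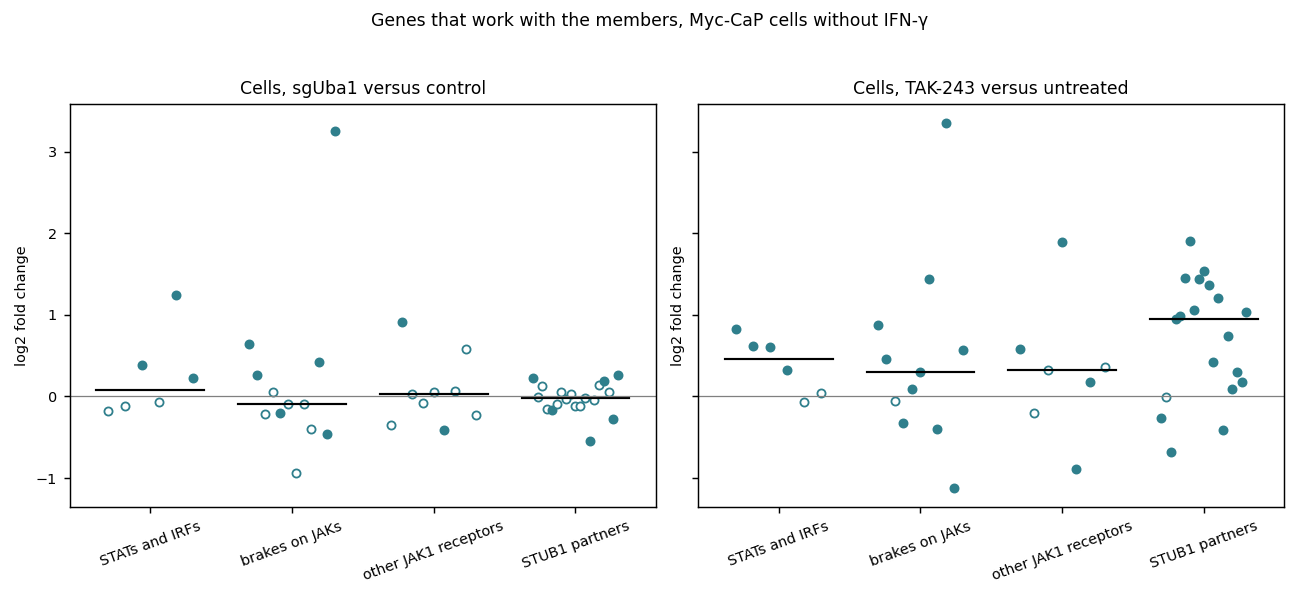
Log2 fold change (y axis) of single genes in 4 lists by role (x axis) for sgUba1 (left) and TAK-243 (right) in Myc-CaP cells without IFN-γ, with bars for list medians and filled points for genes past an adjusted p of 0.05. The STUB1 partners have a median of 0.95 with TAK-243 and -0.01 with sgUba1. The highest point on the left is Usp18, with 0 and 1 expected counts in controls.

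The genes whose pattern was most like that of 4 members were ranked by Pearson's r of log2 CPM over the 51 libraries, after centring each experiment, among 9773 genes with at least 10 CPM on average. Libraries share treatment and depth, so r is a description. For Jak1 the top genes were Brox (0.95), Pvr (0.95) and Pip5k1a (0.94), and without the 8 libraries of the TAK-243 cell experiment these r were 0.63, 0.59 and 0.55. For Jak2 they were Pja2 (0.83), Prkd3 (0.82) and Golgb1 (0.81), with r of 0.81, 0.78 and 0.82 without those libraries. For Ifngr1 they were Fcgrt (0.73), Atp8a1 (0.69) and Il10rb (0.63), and for Stub1 Atp13a1 (0.88), Mogs (0.87) and Emc10 (0.86). For Stub1 these r were 0.71, 0.70 and 0.57 without that experiment, and for Ifngr1 0.76, 0.68 and 0.69. The likeness to Jak1 thus fell most when that experiment was left out.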

How the data were processed

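RNA was sequenced from 51 bulk libraries. The authors deposited, per gene, expected counts and TPM. Per the submitters' processing notes these expected count and TPM values came from kallisto and mm10, as the authors made them, with the kallisto version, annotation and use of strand not given in the sources used here. The labels name oligo(dT) selection of RNA and the methods name enzymatic removal of ribosomal RNA, so the kind of library is uncertain.

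Expected counts, in place of the plain counts the design had assumed, were rounded. Each experiment was filtered with filterByExpr, normalized by TMM and fitted in edgeR 4.0.16 (R 4.3.3) with its quasi-likelihood test, with groups taken from the labels. Adjusted p-values are Benjamini-Hochberg over all genes tested, with a threshold of 0.05, and the SE is the log2 fold change over the root of F. Intervals cover 95%. The differences between TAK-243 and sgUba1 came from a fit of all 16 cell libraries. TPM was used for levels and for ratios.

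Alternatives were DESeq2 1.42.0, limma-voom (limma 3.58.1), RLE normalization, no filter, limma on log2(TPM + 1) and log2(TPM + 0.1), a replicate block, ratios of CPM and each library left out. Every script that tests genes was tested on simulated data. Positions are from GENCODE M21 on GRCm38 and promoters from RefSeq on GRCm38.p6. All members are named, and of each pathway list up to 4 called genes with the largest absolute log2 fold change, besides the 3 genes most like each of 4 members. The lists of STATs and IRFs and of prostate epithelial markers each leave out 1 gene that is not reported here. The members and lists were chosen with earlier results of these data known.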

Additional observations from a re-analysis of the deposited data

Results flagged for a closer look

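In OE tumors, replicate 3 stood apart from the other 3 libraries in both chains of the IFN-γ receptor, with Ifngr1 at 29.7 CPM and Ifngr2 at 21.5 CPM. By the criterion used (Dixon's), chance alone sets apart about 1 in 20 groups, and 40 pairs of group and member were looked at.

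The effects of TAK-243 and sgUba1 in cells differed, by the test of the difference itself, for 7 members without IFN-γ. Of all 15708 genes tested, 55.3% passed that test without IFN-γ and 56.7% with it. Relative to sgUba1, TAK-243 gave log2 differences of 1.35 for Jak1, 1.34 for Ifngr2, -0.9999 for Jak2, -0.67 for Stub1, -0.59 for Ifnar2, -0.49 for Ifnar1 and -0.46 for Ifngr1. With IFN-γ they differed for 6 members, by 1.45 for Jak1, 1.22 for Ifngr2, -1.01 for Jak2, -0.63 for Ifngr1, -0.49 for Ifnar1 and -0.46 for Stub1.

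In log2 CPM, every library with sgUba1 lay below the mean of its controls in B16-BL6 tumors and above it in Myc-CaP cells for 2 receptor chains. In TPM this did not hold for Ifngr1, where replicate 1 of the B16-BL6 tumors labelled sgUba1 lay at 19.9 against a control mean of 19.7. The log2 fold changes were -0.18 and 0.49 for Ifngr1 and -0.22 and 0.18 for Ifnar1, and the difference was not tested.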

How the results depend on the processing

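Under alternatives other than leaving out a library, 754 of the members' log2 fold changes were counted as the same, 30 lost a call, 4 gained one and 4 turned. Direction was compared only where the main fit or the alternative made a call, so uncalled changes of sign are among the 754. The 4 that turned were IFN-γ in untreated cells for Jak1 (-0.20 on log2(TPM + 1) and -0.21 on log2(TPM + 0.1), against 0.01) and for Tyk2 (-0.068 and -0.074, against 0.27), on scales where the median of all genes lay at -0.14 and -0.19. The count of members called with sgUba1 without IFN-γ was 5, and 3 with DESeq2. With sgUba1 and IFN-γ it was 4, and 2 on either TPM scale. With IFN-γ in untreated cells it was 4, and 1 with DESeq2 and 2 with no filter. The cause was not tested.

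With 1 library left out at a time, the members called ranged from 3 to 6 for sgUba1, 2 to 3 for sgUba1 with IFN-γ, 0 to 1 for IFN-γ in control cells, 0 to 1 for the interaction of sgUba1 with IFN-γ, 1 to 3 for IFN-γ in untreated cells, 4 to 6 for TAK-243, and 7 to 8 for the difference between TAK-243 and sgUba1 without IFN-γ. They stayed at 6 for TAK-243 with IFN-γ and for that difference with IFN-γ. In all 4 tumor comparisons and in the interaction of TAK-243 with IFN-γ they stayed at 0. Where this left a group with 1 library, that library was assumed to vary like the other groups.

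Counts over all genes moved further. DESeq2 called 532 genes in B16-BL6 tumors (edgeR 127), 1862 in Myc-CaP tumors labelled sgUba1 (492), 723 in OE tumors (4), 558 in TAK-243 tumors (25), 395 for IFN-γ in control cells (603), 2651 for IFN-γ in untreated cells (4216) and 219 for the interaction of TAK-243 with IFN-γ (347). On log2(TPM + 1) the counts were 254 in Myc-CaP tumors labelled sgUba1, 2618 and 4037 for sgUba1 without and with IFN-γ (4618 and 6119 by edgeR), 18 for IFN-γ in control cells, 12 for the interaction of sgUba1 (720) and 1 for that of TAK-243. With no filter they were 204, 33 and 45 in B16-BL6, OE and TAK-243 tumors, 1460 for IFN-γ in control cells and 1487 for the interaction of sgUba1, and RLE normalization gave 292 and 414 for the last pair.

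With 1 library left out, the counts ranged from 43 to 320 in B16-BL6 tumors, 10 to 692 in Myc-CaP tumors labelled sgUba1, 0 to 386 in OE tumors and 1 to 299 in TAK-243 tumors. The most were called without replicate 4 of the B16-BL6 and replicate 2 of the Myc-CaP tumors labelled sgUba1, replicate 1 of OE and replicate 5 of TAK-243 tumors. In cells they ranged from 2932 to 5641 for sgUba1, 35 to 2721 for IFN-γ in control cells (most without replicate 1 of the unstimulated controls), 14 to 2622 for the interaction of sgUba1 (most without replicate 2) and 85 to 329 for that of TAK-243. The shares of all genes printed beside members move with these counts.

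Same-numbered libraries did not deviate together throughout, with correlations from -0.265 to 0.433, so the numbers were not read as pairs. With the replicate block, the members called were 3 for sgUba1 with IFN-γ, where Stub1 lost its call (adjusted p = 0.0567), and as without it in all other comparisons. Over all genes the block left 2 calls in Myc-CaP tumors labelled sgUba1, 0 in OE tumors and 8 in TAK-243 tumors. Groups of 2 cell libraries, Ifngr2 at as few as 69.5 expected counts, and the spread within tumor groups limit what these data can resolve.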
